A study of Mus musculus with 8 samples.

Results

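The inflammatory CC chemokine genes Ccl2, Ccl3, Ccl4, Ccl5, Ccl6, Ccl7, Ccl9 and Ccl12 and the receptor gene Ccr1 were followed in mouse microglia across 2 genotypes and 4 disease states. The 9 genes were listed by symbol and chosen from a table of 30627 named genes with earlier results of these data known, including how far the genotypes differed. The differences between genotypes are therefore given as values without a test. Each gene had 1 probe set on the array, and all 9 passed the filter on dim genes described below.

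All 8 groups were microglia from mice labelled C57Black/6J, with 1 array for each group. The genotypes were a control marked FL or F/F (called wt in 1 label) and icKO, a conditional knockout of connexin 47 (Cx47). The series title places the deletion in oligodendroglia, whereas the RNA profiled here was labelled as microglial, microglia being the tissue macrophages of brain and spinal cord. Each genotype was profiled in naive mice, in mice with EAE (experimental autoimmune encephalomyelitis, an autoimmune model of multiple sclerosis), in mice with EAE given iguratimod (an anti-inflammatory antirheumatic drug, marked IGU), and in mice with EAE that carry the mark p50, whose meaning the labels do not give. The labels used here give neither the age of the mice, the number of mice behind an array, nor the line that drives the deletion. The connexin 47 gene was not analysed here, so the genotypes rest on the labels alone.

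CC chemokines are small secreted proteins named for a pair of adjacent cysteines, and they guide leukocytes through G protein-coupled receptors. Ccl2, Ccl7 and Ccl12 are monocyte chemoattractant proteins that act through Ccr2. Ccl3 and Ccl4 are macrophage inflammatory proteins released by activated macrophages and microglia, and Ccl5 attracts T cells and monocytes. Ccl6 and Ccl9 are chemokines of rodents that bind Ccr1, a receptor of myeloid cells that also takes Ccl3 and Ccl5. In EAE these ligands are known for drawing monocytes and T cells into the central nervous system.

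The 8 ligand genes lie in clusters on mouse chromosome 11, and Ccr1 lies on chromosome 9 beside Ccr1l1. In RefSeq, Ccl2 is followed by Ccl7, Ccl11, Ccl12 and Ccl8, and Ccl5 is followed by Ccl9, Ccl6, Ccl3 and Ccl4. The annotated spans of Ccl3 and Ccl4 overlap, and whether their probe sets share signal was not tested. A promoter sequence from RefSeq (GRCm38.p6) was matched to 5 of the 9 genes, Ccl3, Ccl6, Ccl9, Ccl12 and Ccr1. The 250 bases before the transcription start are shown for 3 ligands whose profiles over the arrays were unlike each other: Ccl3 (chr11:83649379-83649628, minus strand), Ccl12 (chr11:82101595-82101844, plus strand) and Ccl9 (chr11:83578637-83578886, minus strand). Each is written 5′ to 3′ on the strand of the gene, and capitals mark motif matches.
Ccl3: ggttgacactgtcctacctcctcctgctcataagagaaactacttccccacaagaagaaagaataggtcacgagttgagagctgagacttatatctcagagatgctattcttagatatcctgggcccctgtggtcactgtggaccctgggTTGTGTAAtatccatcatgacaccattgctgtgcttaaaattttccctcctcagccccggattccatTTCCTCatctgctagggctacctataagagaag
Ccl12: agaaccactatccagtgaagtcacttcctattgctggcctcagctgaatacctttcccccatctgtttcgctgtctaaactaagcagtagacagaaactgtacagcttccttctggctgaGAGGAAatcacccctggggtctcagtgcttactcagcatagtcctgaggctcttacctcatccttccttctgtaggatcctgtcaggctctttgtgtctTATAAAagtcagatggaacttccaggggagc
Ccl9: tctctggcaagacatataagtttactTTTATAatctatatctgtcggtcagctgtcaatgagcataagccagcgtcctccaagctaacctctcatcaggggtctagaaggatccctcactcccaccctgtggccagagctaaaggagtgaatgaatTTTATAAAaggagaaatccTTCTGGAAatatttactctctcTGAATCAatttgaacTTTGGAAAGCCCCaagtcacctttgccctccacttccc

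The motifs were searched on both strands. They were the TATA box (TATAAA), AP-1 (TGANTCA), the C/EBP motif (TTNNGNAA), a PU.1 core (GAGGAA), the interferon motifs ISRE and GAS (TTCNNNGAA), and the NF-kB consensus. Ccl12 held a TATA box between 31 and 26 bases before its start and a PU.1 core farther upstream. Ccl3 held 1 C/EBP match and 1 PU.1 core, and Ccl9 held TATA boxes, AP-1, NF-kB and C/EBP matches, the NF-kB match overlapping 1 of the C/EBP matches. Among 32851 promoter windows of that length, 12.4% held a TATA box, 6.75% AP-1, 36.8% C/EBP, 23.3% a PU.1 core and 7.25% NF-kB. ISRE and GAS were in 2.98% and 7.02% of windows and in none of the 5 promoters matched here. Ccl6 held no match to any of the motifs, and Ccr1 held 1 match each to NF-kB, C/EBP and PU.1, the last of these within the C/EBP match. A match or its absence describes these letters and not the binding of a factor.

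Levels are given as log2(intensity + 16), a scale that understates changes of dim genes, and are compared between arrays for 1 gene at a time. The tests covered the 18188 genes that exceeded, on 1 array or more, the median of the named probe sets of that array. Ccl7 lay above that median on 4 arrays and Ccr1 on 3, so both were dim in most groups, whereas the other 7 genes lay above it on all 8. Microglia markers were bright on every array, as the summed intensity of 8 measured marker genes ran from 429731 to 614805 and Cx3cr1 lay between 18.1 and 18.4. On the control EAE array that sum was 508680, below the sum of the neutrophil markers given next. Bright microglia markers therefore do not show that all RNA of an array came from microglia. Median levels of the astrocyte, oligodendrocyte, endothelial and neuron marker lists stayed between 7.20 and 7.98. Neutrophil markers varied most, with a summed intensity over 10 genes of 900302 on the control EAE array against 103164 on the icKO EAE array and 6691 to 26314 on the naive arrays. In control and icKO this sum was 41175 and 132663 with iguratimod, and 6432 and 13309 on the p50 arrays. Monocyte markers summed over 8 genes to 26647 and 27604 on the EAE arrays, 5129 and 12083 with iguratimod, and 2494 to 4302 on the naive and p50 arrays. The near-equal EAE sums hide differences between genes. The list median was 9.72 in control and 10.38 in icKO EAE, with 6 of the 8 genes higher in icKO. Fn1 lay at 9.57 and 12.05 on these arrays, whereas Plac8 lay at 10.08 and 9.33. No marker of any list was at 0. The p50 arrays gave 15.90 and 16.64 for Xist, the X-inactivation transcript of females, against 7.71 to 8.30 on the other 6.

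**Figure D1:**
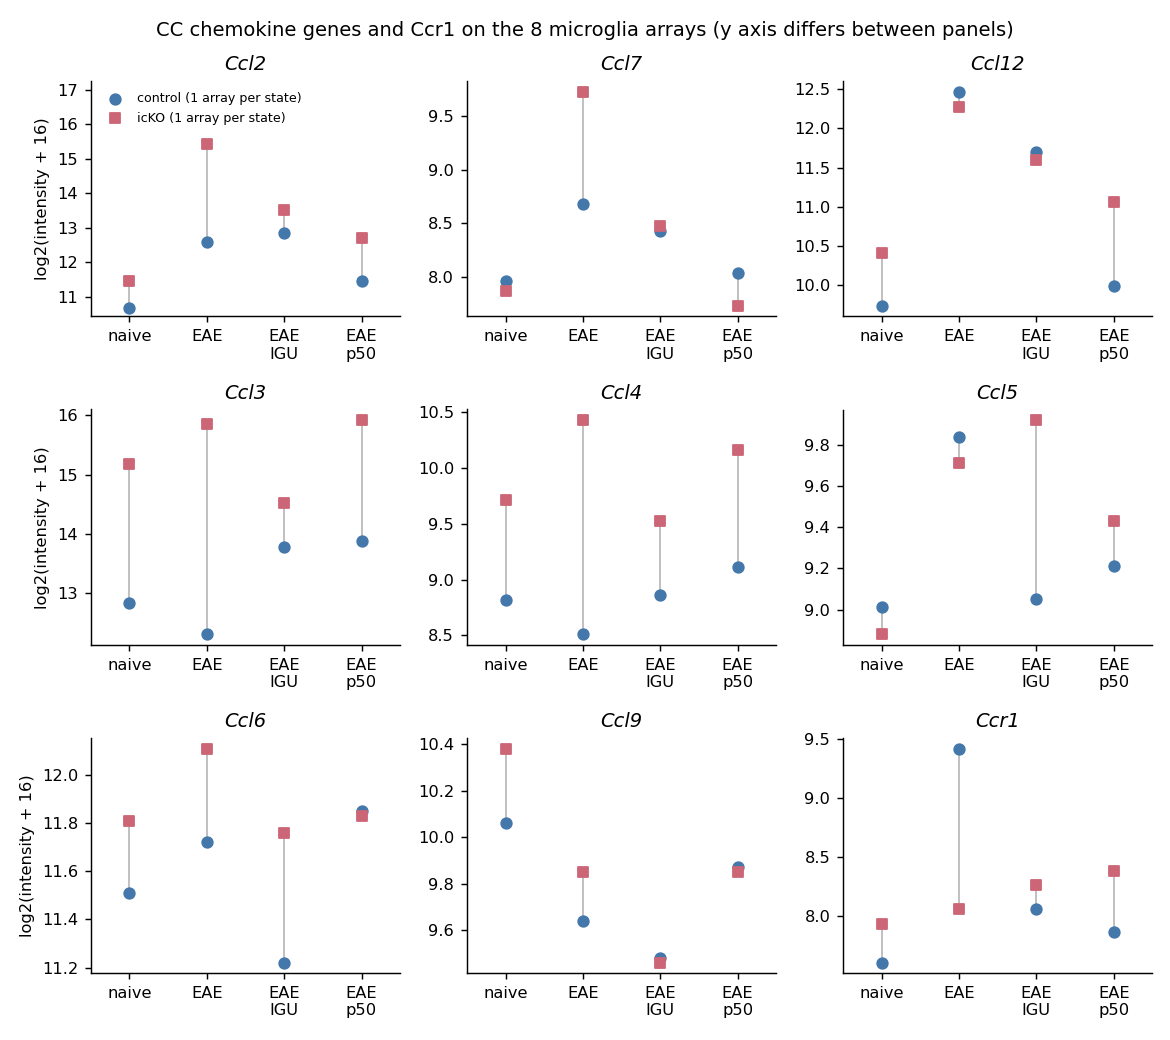
Level of each gene on each array as log2(intensity + 16), with states along the x axis, circles for control, squares for icKO and a grey line joining the pair; each point is 1 array. Ccl3 and Ccl4 sit higher in icKO in every state, Ccl2 and Ccl12 lie lowest on the naive control array, and Ccr1 has its highest value on the control EAE array.

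The monocyte chemoattractant genes were higher in EAE than in naive microglia in both genotypes. Ccl2 lay at 10.67 in naive control and 11.47 in naive icKO, at 12.59 and 15.42 in EAE, at 12.85 and 13.51 with iguratimod, and at 11.47 and 12.72 on the p50 arrays. The icKO EAE array stood highest and the naive control array lowest, and both EAE and both iguratimod arrays lay above both naive arrays. Ccl12 lay at 9.73 and 10.41 in naive control and icKO, at 12.47 and 12.27 in EAE, at 11.70 and 11.59 with iguratimod, and at 9.98 and 11.06 on the p50 arrays. For this gene the EAE and iguratimod arrays lay above all naive and p50 arrays, and the EAE arrays above the iguratimod arrays. Ccl7 lay between 7.73 and 8.68 on 7 arrays and at 9.73 on the icKO EAE array.

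Since no group held a replicate, differences between states were tested with limma in a model that added genotype to state and used all 8 arrays, whose spread is the failure of the 2 genotypes to change alike. From naive to EAE, Ccl2 rose by 2.93 ± 0.52 (SE) log2 units, or 7.64-fold, with a limma adjusted p of 0.0442, and Ccl12 rose by 2.30 ± 0.33, or 4.93-fold (adjusted p = 0.0301). In control, Ccl2 differed by 1.92 and Ccl12 by 2.74, and in icKO they differed by 3.95 and 1.86, so the gene with the larger change differed between the genotypes. Ccl7 gave 1.29 ± 0.32 (adjusted p = 0.0998), with 0.73 in control and 1.85 in icKO. These were the members past the threshold, 2 of 9 higher and 0 lower, while 3.33% of all tested genes were higher and 0.379% lower. Median differences were 0.83 over the 9 genes and 0.01 over all tested genes. At an unadjusted p under 0.05 the count was 5 of 9, against 19.2% of all genes.

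Both calls depended on single arrays. When any 1 of the 4 arrays compared, naive or EAE of either genotype, was left out, neither Ccl2 nor Ccl12 passed, and without any 1 iguratimod or p50 array Ccl2 did not pass while Ccl12 did. Over all alternatives the adjusted p ran from 0.0235 to 0.172 for Ccl2 and from 0.0165 to 0.173 for Ccl12, and the differences stayed between 1.97 and 3.90 and between 1.92 and 2.68. Monocyte markers moved with these genes: over the 8 arrays, 1 for each group, the median of the monocyte list had a Pearson r of 0.83 with Ccl2, 0.89 with Ccl7 and 0.80 with Ccl12. Without the EAE arrays, the 2 farthest on the marker axis, these were 0.72, 0.67 and 0.59, and without the icKO EAE array alone 0.65, 0.81 and 0.76. The median of the microglia list ran the other way, with an r of -0.82, -0.84 and -0.73, and that of the neutrophil list had an r of 0.25, 0.43 and 0.66. More cells of a type and more RNA per cell cannot be told apart in RNA from bulk samples, and the part of monocytes, microglia and neutrophils in these values was not tested.

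With iguratimod, the chemoattractant genes differed from untreated EAE mainly on the icKO arrays for Ccl2 and Ccl7. Ccl2 gave -1.92 in icKO and 0.27 in control, and Ccl7 gave -1.25 and -0.25. Ccl12 gave -0.68 and -0.77, near each other in the 2 genotypes. None of the fitted differences passed: Ccl2 gave -0.83 ± 0.52 (limma adjusted p = 0.722), Ccl7 gave -0.75 ± 0.32 (adjusted p = 0.610) and Ccl12 gave -0.73 ± 0.33 (adjusted p = 0.624). Without the icKO EAE array the difference for Ccl2 was 0.14, of the opposite sign. On the iguratimod arrays Ccl2 still lay above naive by 2.18 in control and 2.03 in icKO (2.11 ± 0.52, adjusted p = 0.244), and Ccl12 by 1.97 and 1.18 (1.58 ± 0.33, adjusted p = 0.213). The comparisons with naive and with EAE share arrays.

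On the p50 arrays the 3 chemoattractant genes lay below EAE in both genotypes. Ccl2 gave -1.12 in control and -2.70 in icKO, Ccl7 -0.64 and -1.99, and Ccl12 -2.49 and -1.21. The fitted differences were -1.91 ± 0.52 (limma adjusted p = 0.119), -1.32 ± 0.32 (adjusted p = 0.0991) and -1.85 ± 0.33 (adjusted p = 0.0529), none past the threshold. Without the control EAE array, with EAE resting on the icKO array alone, the difference was -2.88 for Ccl2 and -1.90 for Ccl7. Ccl12 passed with arrays centred on their median (adjusted p = 0.0428) and with the stricter filter (adjusted p = 0.0321). Against naive, the p50 arrays gave 1.02 ± 0.52 for Ccl2 (adjusted p = 0.326), with 0.80 in control and 1.25 in icKO. The Xist difference and the p50 mark cannot be told apart in these comparisons.

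**Figure D2:**
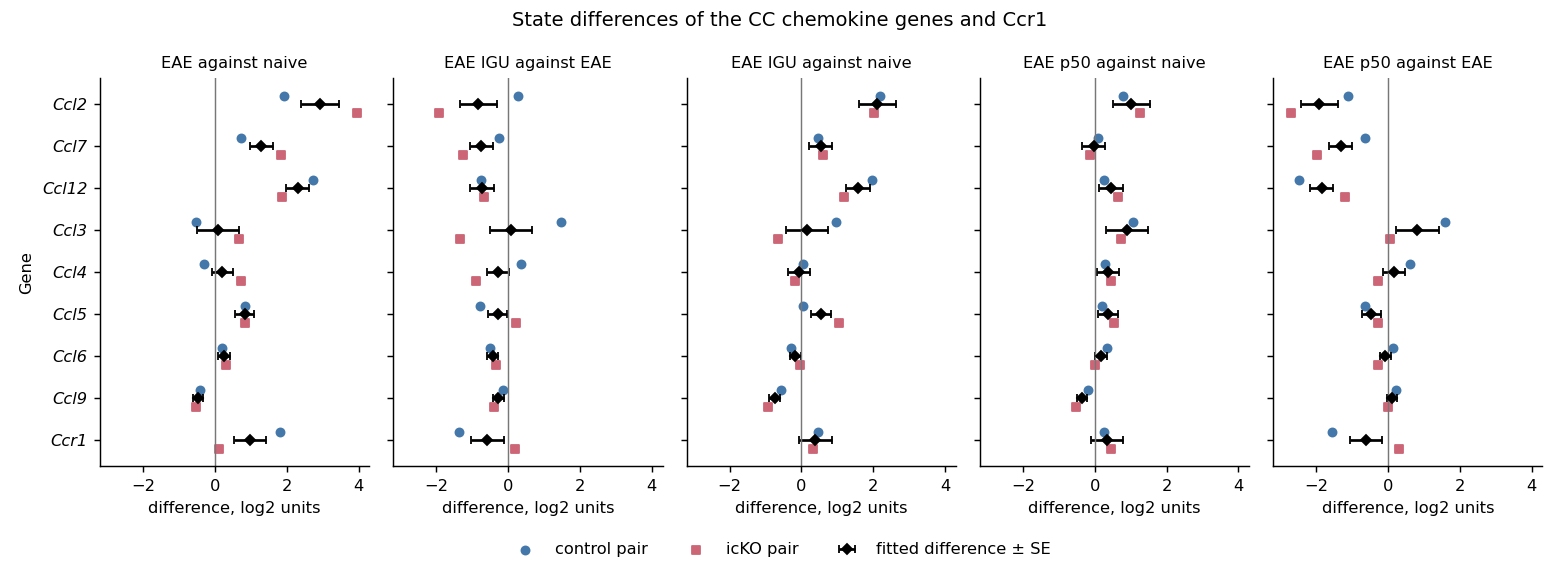
Difference between states for each gene, in log2 units on the x axis, for the 5 comparisons; black diamonds are the limma differences with bars of ± 1 SE, blue circles the control pair and red squares the icKO pair. Ccl2 and Ccl12 lie to the right of 0 in both genotypes in EAE against naive, whereas the control and icKO points of Ccl3 lie on opposite sides of 0 in that comparison and in EAE IGU against EAE.

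Ccl3 and Ccl4 had another profile, in which every icKO array lay above every control array. Ccl3 lay at 12.83 in naive control and 15.18 in naive icKO, at 12.31 and 15.86 in EAE, at 13.78 and 14.53 with iguratimod, and at 13.89 and 15.92 on the p50 arrays. The lowest icKO array (14.53, with iguratimod) was above the highest control array (13.89, p50). Ccl4 lay at 8.82 and 9.71 in naive control and icKO, at 8.51 and 10.43 in EAE, at 8.86 and 9.53 with iguratimod, and at 9.11 and 10.16 on the p50 arrays. Here the lowest icKO array (9.53, with iguratimod) was above the highest control array (9.11, p50). How many of all tested genes separate the arrays in this way was not counted. A looser condition, brighter in icKO within every state, was met by 4.88% of them. The members were chosen with these gaps known, so nothing is read from the separation. Over the 8 arrays Ccl3 and Ccl4 had a Pearson r of 0.97, and of 740 genes whose SD was at least 0.5 times that of Ccl3, Ccl4 was the most alike.

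The icKO minus control difference of Ccl3 was 2.35 in naive, 3.56 in EAE, 0.74 with iguratimod and 2.03 on the p50 arrays, with a mean of 2.17 ± 1.16 (SD over 4 states). These correspond to 5.09-, 11.8-, 1.67- and 4.09-fold brighter signal in icKO. Among the 18188 tested genes this difference ranked 1 in naive and in EAE, 4 on the p50 arrays and 549 with iguratimod. Since the members were chosen with these gaps known and each gap rests on 1 pair of arrays, nothing is read from the ranks. For Ccl4 the differences were 0.89, 1.92, 0.67 and 1.04 in the same order (mean 1.13 ± 0.55), and for Ccl2 they were 0.80, 2.84, 0.65 and 1.25 (mean 1.39 ± 1.0). All 3 genes were therefore brighter in icKO in 4 of 4 states, with the largest gap in EAE and the smallest with iguratimod. Of all tested genes, 4.88% were brighter in icKO in every state. Over the whole table limma called 0 genes for genotype, 0.0% of those tested, in either direction, with 985 at an unadjusted p under 0.05. The neutrophil marker list also differed between the genotypes, with a median gap of -0.88 in naive, -2.63 in EAE, 1.5 with iguratimod and 0.53 on the p50 arrays. Its median level had a Pearson r of -0.55 with Ccl3, -0.42 with Ccl4 and 0.25 with Ccl2 over the 8 arrays. The part of neutrophils in these gaps was not tested.

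The gaps were unevenly spread over the family. In naive, 1 of 9 genes was at least 2-fold brighter in icKO (0.264% of all tested genes) and 0 at least 2-fold dimmer (1.64%). In EAE, 4 were brighter (1.28% of all genes), namely Ccl2, Ccl7, Ccl3 and Ccl4, and 1 was dimmer (0.566%), Ccr1. With iguratimod 0 were at least 2-fold brighter (1.26%) or dimmer (1.95%), and on the p50 arrays 4 were brighter (0.291%), Ccl2, Ccl12, Ccl3 and Ccl4, and 0 dimmer (0.0935%). The genes just outside this threshold were Ccl4 in naive (0.89), Ccl5 with iguratimod (0.87) and Ccl2 in naive (0.80), and those just inside it were Ccl7 in EAE (1.04), Ccl4 on the p50 arrays (1.04) and Ccl12 on the p50 arrays (1.08). Because the members were chosen with these gaps in view, nothing is read from the counts. Ccl7 and Ccl12, whose ligand function is shared with Ccl2, did not keep 1 sign over the states: Ccl7 gave -0.08, 1.04, 0.05 and -0.31, and Ccl12 gave 0.67, -0.20, -0.11 and 1.08, in naive, EAE, iguratimod and p50.

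**Figure D3:**
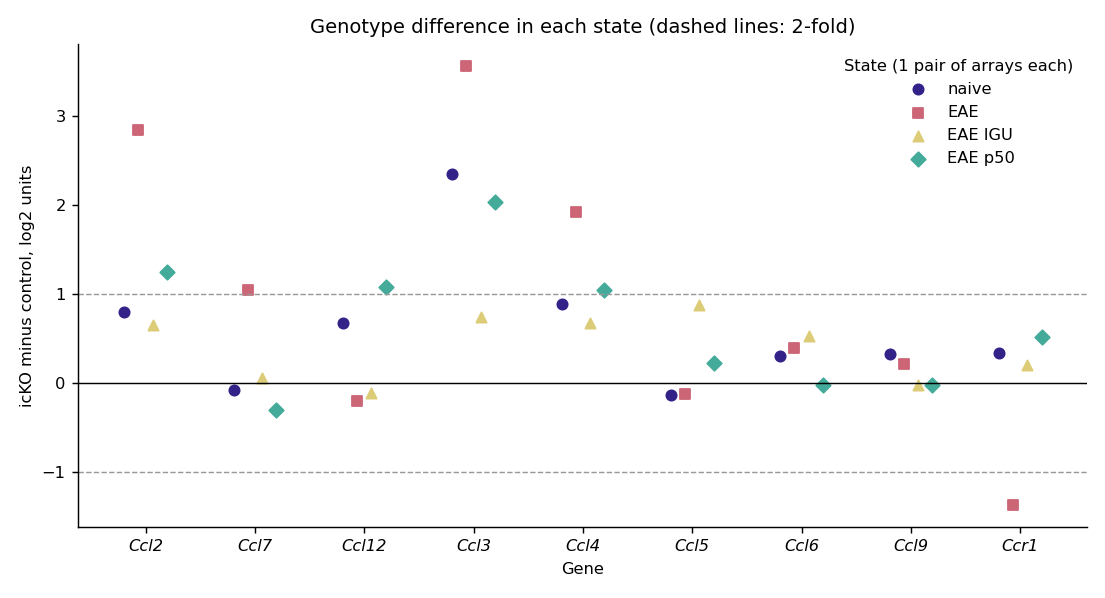
Difference between icKO and control (icKO minus control) in log2 units on the y axis for each gene, with 1 point per state; dashed lines mark a 2-fold difference. Ccl2, Ccl3 and Ccl4 lie above 0 in all 4 states and highest in EAE, while Ccr1 lies at -1.37 in EAE and above 0 in the other states.

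The state differences of Ccl3 and Ccl4 were not of 1 sign in the genotypes. From naive to EAE, Ccl3 differed by -0.52 in control and 0.68 in icKO (fitted difference 0.08 ± 0.59, limma adjusted p = 0.960), and Ccl4 by -0.31 and 0.72 (0.21 ± 0.30, adjusted p = 0.748). With iguratimod against EAE, Ccl3 differed by 1.48 in control and -1.34 in icKO, and Ccl4 by 0.35 and -0.90. The genotype gap of Ccl3 was thus 3.56 in EAE and 0.74 with iguratimod, a contrast of 4 arrays that was not tested. The fitted value for Ccl3 was 0.07 ± 0.59 (adjusted p = 0.987) and -0.85 without the control EAE array. Against naive, the p50 arrays gave 1.06 in control and 0.74 in icKO for Ccl3 (0.90 ± 0.59, adjusted p = 0.445).

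Immediate early genes, transcription factors and feedback regulators that cells induce within minutes of stimulation or of tissue handling, moved with Ccl3 and Ccl4. The median of 12 measured genes of that list lay at 10.21 and 11.07 in naive control and icKO, at 8.53 and 11.17 in EAE, at 9.79 and 10.08 with iguratimod, and at 10.90 and 12.84 on the p50 arrays. Its median genotype gap was 0.68 in naive, 1.28 in EAE, 0.22 with iguratimod and 0.98 on the p50 arrays, with 12, 12, 8 and 12 of the 12 genes higher in icKO. The summed intensity was 33435 on the control EAE array, 102387 to 278047 on the other control arrays and 121242 to 444500 on the icKO arrays. Over the 8 arrays the list median had a Pearson r of 0.84 with Ccl3 and 0.80 with Ccl4, and of 0.66 and 0.70 without the 2 arrays farthest from its centre, control EAE and icKO p50. Its r with Ccl2 was 0.09. The part of cell stimulation or handling in the Ccl3 and Ccl4 values was not tested. The 11 measured NF-kB feedback genes, which encode inhibitors and subunits of that pathway, had median gaps of -0.02, 0.04, 0.32 and 0.02, with 5, 7, 11 and 9 of them higher in icKO. Their median level had an r of 0.56 with Ccl3 and 0.66 with Ccl4, and a higher r of 0.74 with Ccl2 and 0.75 with Ccl5. Nfkbiz, an atypical inhibitor protein, was higher in icKO by 0.64, 0.89, 0.42 and 1.03, and Tnfaip3, which encodes the deubiquitinase A20, by 0.26, 0.75, 0.52 and 1.15, in naive, EAE, iguratimod and p50. Nfkbib was higher in icKO by smaller gaps of 0.15, 0.21, 0.15 and 0.11, and Tnip1 gave 0.01, 0.18, 0.13 and 0.0. The other genes of the list changed sign over the states. In the same order, Nfkbia gave -0.27, 0.62, 1.13 and 0.16, and Rel gave 0.56, -0.25, 0.60 and -0.03. The part of this pathway in the Ccl2, Ccl3, Ccl4 and Ccl5 values was not tested either.

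**Figure D4:**
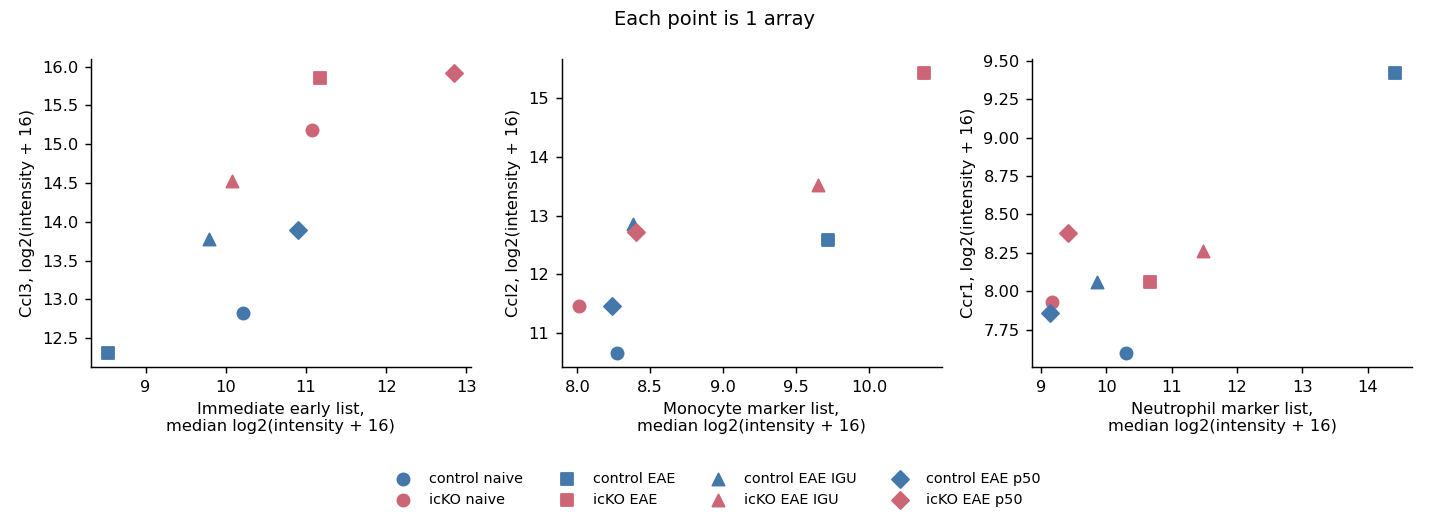
Level of Ccl3, Ccl2 and Ccr1 on the y axes against the median level of the immediate early, monocyte and neutrophil lists on the x axes, all as log2(intensity + 16); each point is 1 array, blue for control and red for icKO, with a shape per state. Ccl3 spreads along the immediate early list, whereas the Ccr1 panel is set by the control EAE array, which lies far from the other 7.

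Ccl5, the ligand for T cells and monocytes, differed by 0.83 from naive to EAE in each genotype (0.83 ± 0.27, limma adjusted p = 0.170). It lay at 9.01 and 8.88 in naive control and icKO, at 9.84 and 9.71 in EAE, at 9.05 and 9.92 with iguratimod, and at 9.21 and 9.43 on the p50 arrays. The icKO iguratimod array was thus at the level of the EAE arrays, and the control iguratimod array at that of the naive arrays. The iguratimod difference from EAE was -0.79 in control and 0.21 in icKO (-0.29 ± 0.27, adjusted p = 0.819). Its r with the median of the monocyte list was 0.88 over the 8 arrays and 0.93 without the EAE arrays, the farthest on that axis. That median was 8.38 on the control and 9.65 on the icKO iguratimod array. Ccl5 also had an r of 0.71 with the neutrophil list median, which was 9.86 and 11.48 on these arrays, and of 0.75 with the NF-kB feedback median. The part of monocytes, neutrophils or that pathway was not tested.

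Ccl6 and Ccl9, the rodent ligands of Ccr1, varied least. Ccl6 ranged over 0.89 log2 units, from 11.22 on the control iguratimod array to 12.11 on the icKO EAE array, and Ccl9 over 0.92, from 9.46 on the icKO iguratimod array to 10.38 on the naive icKO array. Ccl9 lay lower than naive in both genotypes in each disease state. Its fitted difference from naive was -0.48 ± 0.14 in EAE (limma adjusted p = 0.146), -0.75 ± 0.14 with iguratimod (adjusted p = 0.187) and -0.36 ± 0.14 on the p50 arrays (adjusted p = 0.232), none past the threshold. Ccl6 gave -0.43 ± 0.16 with iguratimod against EAE (adjusted p = 0.574), with -0.50 in control and -0.35 in icKO. The Ccl6 and Ccl9 profiles had an r of 0.31 over the 8 arrays, although the genes are neighbours.

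Ccr1, the receptor gene, was high on 1 array. It lay at 9.42 on the control EAE array and between 7.60 and 8.38 on the other 7, and it passed the filter median on 3 arrays only. From naive to EAE it differed by 1.82 in control and 0.12 in icKO (0.97 ± 0.45, limma adjusted p = 0.316), and without the control EAE array the difference was 0.11. Its icKO minus control difference was -1.37 in EAE and 0.33, 0.20 and 0.51 in naive, iguratimod and p50. The control EAE array was also the one with the most neutrophil marker signal, with S100a8 at 18.9 against 15.1 on the icKO EAE array. The r of Ccr1 with the neutrophil list median was 0.84 over 8 arrays, 0.18 without the control EAE array and -0.20 without the 2 farthest, control EAE and icKO iguratimod, and the part of neutrophils was not tested.

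The genes with profiles most like each member were taken among nameable genes that are not members, by Pearson r over the 8 arrays and with an SD at least 0.5 times that of the member. For Ccl2 they were Acod1 and Gbp4 (0.94 each) and Il1b (0.92), and for Ccl12 Rpl32l (0.98), Igtp (0.96) and Casp1 (0.95). For Ccl7 they were Cyp4f18 (0.97), Cfb and Mad2l1 (0.96 each). Ccl3 was most like Klf6 (0.87), Il1a and Rgs1 (0.84 each), and Klf6 is on the immediate early list. Ccl4 was most like Trib1 (0.97), Srsf5 (0.92) and Hsp90aa1 (0.91). Ccl5 was most like Herc6 (0.99), Ifi213 and Sdc3 (0.98 each), and Ccr1 most like Ifitm6 and Pglyrp1 (0.91 each) and Stfa2 (0.90). Ccl6 was most like Orc2 and Marcksl1 (0.97 each) and Ube2f (0.96), and Ccl9 most like Zfp943 (0.94), Dbp (0.93) and Slc39a12 (0.91). With 8 arrays and between 557 and 14519 eligible genes for a member, high values of r arise readily, and those of Ccl5, Ccl6 and Ccl9 rest on narrow ranges.

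Over the 4 comparisons other than EAE against naive, none of the 9 genes passed the test. In EAE IGU against EAE the limma count was 0 of 9, with 0.0% of all genes called higher and 0.0% lower, and 1 gene of the 9, Ccl6, had an unadjusted p under 0.05 (8.5% of all genes). In EAE IGU against naive it was 0 of 9 (0.0055% of all genes higher, 0.0% lower), with 3 at an unadjusted p under 0.05, Ccl2, Ccl12 and Ccl9 (10.9% of all genes). In EAE p50 against naive it was 0 of 9 (0.368% higher, 0.429% lower), with 1 at an unadjusted p under 0.05, Ccl9 (20.5% of all genes). In EAE p50 against EAE it was 0 of 9 (1.09% higher, 1.62% lower), with 3 at that unadjusted limit, Ccl2, Ccl7 and Ccl12 (19.5% of all genes).

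The rest of the CC system was read from a list of 13 further ligand and 14 further receptor genes. Of these 27 genes 25 were named on the array, 14 were bright enough to test, and 0 passed in any of the 5 comparisons. Their median difference from naive was -0.04 in EAE, 0.09 with iguratimod and -0.11 on the p50 arrays, against 0.01, 0.02 and 0.01 over all tested genes. Ccr2, the receptor of the monocyte chemoattractants and also 1 of the monocyte markers, gave 1.33 ± 0.35 in EAE against naive (limma adjusted p = 0.110) and -0.97 ± 0.35 with iguratimod against EAE (adjusted p = 0.558). Ccl8, a further chemoattractant beside Ccl12, gave 1.05 ± 0.45 in EAE (adjusted p = 0.281), with 0.03 in control and 2.07 in icKO. On the p50 arrays against EAE, Ccr2 gave -1.37 ± 0.35 (adjusted p = 0.104), with -1.27 in control and -1.47 in icKO. Against naive, Ccl8 gave 0.70 ± 0.45 on those arrays (adjusted p = 0.431), with -0.0 in control and 1.41 in icKO. Ccr7, the lymph node homing receptor, gave -0.60 ± 0.12 on the p50 arrays against EAE (adjusted p = 0.0691) and -0.68 ± 0.12 against naive (adjusted p = 0.0709).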

How the data were processed

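The deposited values are array intensities, 65956 rows by 8 arrays, made by the authors with Affymetrix Expression Console per the submitters' processing notes. Their scale is not stated in the sources used here. They were treated as linear, and every fold value rests on that. Their summarisation, normalization and genome build are not given in the sources used here, and no detection calls were used. Array medians ran from 243.1 to 268.6. Rows were named through the platform annotation, updated by RefSeq (GRCm38.p6): 31080 carried 1 symbol, 1670 several (left out) and 33206 were unnamed here, leaving 30627 genes. The brightest probe set stood for each of the 357 genes with several.

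Values were analysed as log2(intensity + 16) without further normalization. The 18188 genes that exceeded the 50th percentile of an array's named probe sets on 1 array or more were tested with limma 3.58.1 in R 4.3.3 (lmFit and eBayes, state plus genotype, 3 residual degrees of freedom, Benjamini-Hochberg over all tested genes, two-sided, adjusted p of 0.05). The p-values rest on how far the genotypes failed to change alike over the states, and no spread within a group was measured. Nothing says that the arrays stand for separate animals, so technical differences may be part of it. The number of arrays limits every value. Single arrays were set against each other without a test, and 2-fold differences were counted. The fit was checked on simulated data in which both genotypes changed alike apart from noise. That check therefore does not cover genes whose 2 genotypes changed unlike each other.

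Members, gene lists and tests were chosen with earlier results of these data known. Every member was named. Of other CC genes, those that passed or the 2 with the largest differences were named, and for likeness the 3 nearest nameable genes, which leaves out predicted genes, pseudogenes, small RNAs, chemosensory receptors and antigen receptor segments. Of marker lists, the brightest or most different genes were named. T cell, NK cell, B cell and border macrophage lists were also measured. Alternatives were the filter, normalization, pseudocount, probe sets, prior, fold threshold, and leaving out each array, the p50 pair or each state.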

Additional observations from a re-analysis of the deposited data

Results flagged for a closer look

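Opposite changes in the 2 genotypes drew attention to Ccl3. From naive to EAE it differed by -0.52 in control and 0.68 in icKO, with iguratimod against EAE by 1.48 and -1.34, and with iguratimod against naive by 0.95 and -0.65. For Ccr1 the genotype difference, icKO minus control, was -1.37 in EAE and 0.51 on the p50 arrays, so it changed sign between states. Each value rests on 1 pair of arrays and the differences were not tested. Only pairs in which both values were at least 0.5 log2 units from 0 were taken, a limit set after the data were seen. No group held enough arrays for a test of single outlying samples.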

How the results depend on the processing

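Each group was 1 array, so the tests rest on how alike the genotypes changed and the number of arrays limits every value, while Ccl7 and Ccr1 were also dim on most arrays. No paired analysis was possible because the labels give no replicate numbers and each group holds 1 array. Without 1 array, the level of its state rests on the other genotype's array alone. Most alternatives kept direction and side of the threshold, but most of the differences covered had not passed to begin with. The 2 calls that had, Ccl2 and Ccl12 in EAE against naive, were both lost after quantile normalization. Ccl2 was also lost with no filter and without the p50 pair. No scaling moved the median of all genes by over 0.09 log2 units.

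In EAE against naive, members passing numbered 1 with no filter, 0 after quantile normalization, 1 without the p50 pair, and 0 to 1 without single arrays. Over all genes 201 passed after quantile normalization (155 higher and 46 lower, against 605 and 69), 229 without the p50 pair and 0 to 589 without single arrays. In EAE IGU against naive 3 genes passed with the filter at the 70th percentile, 0 without the p50 pair and 0 to 0 without single arrays. In EAE p50 against naive 367 passed with that filter, 389 with arrays centred on their median (282 higher and 107 lower, against 67 and 78) and 50 to 221 without single arrays. In EAE p50 against EAE the range was 68 to 424 genes and 0 to 2 members without single arrays, and 1 member passed with the stricter filter and 1 with centred arrays. At a 1.5-fold limit, 4 members were brighter in icKO in naive (2.31% of all genes) and 4 with iguratimod (5.45%), and 0 were dimmer in either (8.23% and 8.48%).

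Reversals met only differences that had not passed. Quantile normalization gave -0.30 for Ccl3 in EAE and -0.03 with iguratimod against naive, 0.05 for Ccl7 on the p50 arrays against naive (0.04 with centred arrays) and 0.03 for Ccl6 in p50 against EAE. Without single arrays, EAE against naive ran from -0.84 to 1.0 for Ccl3 and -0.32 to 0.73 for Ccl4. EAE IGU against EAE ran from -1.79 to 0.14 for Ccl2, -0.88 to 1.02 for Ccl3, -0.80 to 0.25 for Ccl4, -0.74 to 0.16 for Ccl5 and -1.44 to 0.28 for Ccr1, and against naive from -0.80 to 1.10 for Ccl3 and -0.38 to 0.24 for Ccl4. EAE p50 against naive ran from -0.35 to 0.30 for Ccl7, -0.03 to 0.93 for Ccl12, -0.03 to 0.39 for Ccl6 and -0.04 to 0.75 for Ccr1. EAE p50 against EAE ran from -0.10 to 1.74 for Ccl3, -0.36 to 0.69 for Ccl4, -0.28 to 0.14 for Ccl6 and -1.47 to 0.24 for Ccr1. The cause was not tested, beyond the smaller number of arrays.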

Other observations

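Other marker lists were read beside the members. Over the arrays, median levels ran from 7.89 to 8.40 for 7 T cell genes, from 7.36 to 7.92 for 7 NK cell genes, from 7.71 to 8.01 for 4 B cell genes and from 8.24 to 8.55 for 5 border macrophage genes. The T cell and NK cell medians were highest on the icKO EAE array, as were Ccl2, Ccl7, Ccl4 and Ccl6. The list did not move as 1: Cd3e, Cd3d and Cd3g, components of the T cell receptor complex, lay highest there at 9.09, 8.40 and 9.20, whereas the co-receptor gene Cd8a lay lowest there at 7.61, Cd4 lay at 7.05 on both EAE arrays and Il7r at 10.00 against 10.26 on the naive arrays.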
